A study of Papio anubis with 40 samples.

Results

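The plasma microRNAs of 8 olive baboons (Papio anubis) at month 9 after endometriosis was induced were compared with those of the same animals before inoculation (month 0). The comparison was defined by the time point in the sample labels: 16 of the 40 libraries of the series have month 9 (8 libraries) or month 0 (8 libraries), and every baboon has 1 of each. Per the description of the series, menstrual tissue was placed in the peritoneal cavity by laparoscopy and the lesions were later examined by laparoscopy and histology, so the animals are a model in which disease starts at a known date. The other 24 libraries are the same animals at months 3, 6 and 15. All samples are labelled as having no treatment, and none is from an animal that was not inoculated, so time since inoculation, the age of the animal and the storage time of the plasma cannot be told apart. The labels give 0.5 mL of plasma per sample, while the series description speaks of serum.

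MicroRNAs are short RNAs that lower the output of messenger RNAs that pair with their seed. They leave cells in vesicles or bound to proteins, so plasma holds a mixture from blood cells, platelets, endothelium and organs with a large blood flow such as the liver. Plasma has no microRNA of its own: a level there is read against lists of microRNAs known to be abundant in a cell type or tissue. In endometriosis, in which endometrium-like tissue grows outside the uterus, circulating microRNAs have been studied as possible markers of the disease. The lesions are known to be inflamed and fibrotic, and hypoxia is one of the signals described in them.

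The table has 2731 rows, each a mature microRNA name or several names joined by a slash, and holds whole-number counts. Of these, 582 had a count in any of the 16 libraries, 524 at month 9 and 505 at month 0. The 77 rows counted at month 9 alone reached at most 33 counts in a library, and the 58 counted at month 0 alone at most 85. Total counts ran from 920618 to 3622363 per library at month 9 and from 696873 to 2251643 at month 0. miR-16-5p, abundant in red cells, had the highest count in 5 libraries of month 9 and 6 of month 0, while miR-122-5p from the liver led the other 3 and 2. Levels are given as CPM, counts put on a common library size with TMM factors, which are set by the rows that most libraries share. The month 9 library of PA8001 stands apart: miR-122-5p took 78.6% of its counts, its TMM factor was the lowest of the 16, and its scaled CPM of miR-122-5p came to 2195780.

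No microRNA passed the threshold (adjusted p under 0.05) between month 9 and month 0. The quasi-likelihood test of edgeR, in which each baboon was compared with itself, called 0 of 318 rows tested (0%), and the smallest adjusted p was 0.762. limma-voom also called none of 318 (0%). DESeq2 called 1 (0.314%), miR-24-3p, and edgeR without a low-count filter called 2 of 689 (0.29%), miR-24-3p and miR-122-5p. At an unadjusted p under 0.05 stood 11 rows (3.46%), where 15.9 rows (5%) are expected by chance. Of the 11, 7 were higher (2.2%) and 4 lower at month 9. The log2 change was above 0 in 189 rows (59.4%) and below 0 in 129, with a median of 0.054. Scaling by library totals alone moved that median to -0.28, upper-quartile factors to -0.12 and size factors of DESeq2 to 0.020. Every change is to be read relative to this shift. The unadjusted p also depended on it: with upper-quartile factors 17 rows were under 0.05, 3 higher and 14 lower, and with library totals alone 24 rows, 1 higher and 23 lower. In no row (0%) did the CPM values of the month 9 and month 0 libraries fail to overlap.

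The precision of the comparison sets what it could have shown. The SE of a log2 change had a median of 0.388 over the 318 rows (0.134 to 4.98). The median 95% interval reached 0.79 to either side of the estimate, or 1.73-fold. For 142 rows (44.7%) the whole interval lay within a change of 2-fold in either direction, and for the others a change of that size was neither shown nor excluded by the interval. A change of sign shared by all 8 baboons was found in 1 row (0.314%), miR-374a-5p, which was lower. In at least 7 of 8 baboons 9 rows were higher (2.83%) and 9 were lower (2.83%).

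**Figure D1:**
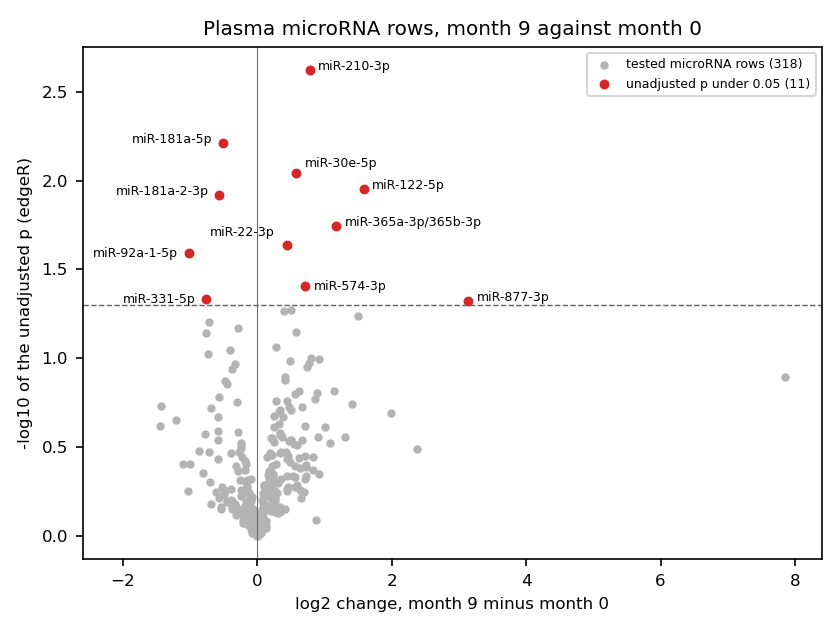
Log2 change at month 9 minus month 0 (x axis) against the negative log10 of the unadjusted edgeR p (y axis) for the 318 microRNA rows tested; each point is a row, red points and labels mark the 11 with an unadjusted p under 0.05, and the dashed line is that threshold. The 7 labelled rows right of 0 and the 4 left of 0 are the smallest p-values of a comparison in which none passed after adjustment.

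The smallest p belonged to miR-210-3p, the microRNA most widely described as induced by hypoxia-inducible factor when oxygen is low. At month 9 it stood at 394 CPM in PA8915, 340.5 in PA8835, 329 in PA8872, 272 in PA8914, 258 in PA8912, 223 in PA8873, 159.6 in PA8001 and 119.9 in PA8003. At month 0 the same animals had 194, 94.2, 148, 178, 176, 169, 91.3 and 154 CPM. It was therefore higher in 7 of 8 baboons and lower in PA8003, and 2 of the month 9 libraries lay within the month 0 range. The log2 change was 0.78 (SE 0.237, 95% interval 0.30 to 1.26), which did not pass over all rows (edgeR, adjusted p = 0.762). It was 0.44 with library totals alone and 0.72 when only the 16 libraries were fitted. A fit with a term for miR-122-5p, chosen after seeing the data, gave 0.92 (edgeR, adjusted p = 0.162). Over 23 alternatives the log2 change of miR-210-3p ran from 0.44 to 0.93. The alternatives refit the same libraries or part of them, and this row was picked by its rank among all rows. They are therefore no independent test of it. Beside month 9, the log2 changes from the same month 0 libraries were 0.57 at month 3, 0.74 at month 6 and 1.34 at month 15.

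None of the 13 tested rows of the hypoxia and fibrosis list was called. Of them 10 of 13 were above 0, against 59.4% of all rows, with a median log2 change of 0.30 that became -0.11 with library totals alone. Next to miR-210-3p it holds both arms of miR-574: miR-574-3p stood at 38.1 to 313 CPM with a median of 144 at month 9, against 38.8 to 167 CPM with a median of 83.5 at month 0 (log2 0.71, SE 0.332). miR-574-5p stood at 380.2 to 977 CPM with a median of 588 at month 9, against 295 to 673 CPM with a median of 494 at month 0 (log2 0.40, SE 0.201). Each was higher in 5 of 8 baboons, with overlapping groups, and without the month 9 library of PA8001 the log2 change of miR-574-3p was 0.45. miR-34a-5p, which p53 induces, had log2 0.42 (SE 0.270, higher in 6 of 8). The miR-29 family, which is known to lower collagen messages, had log2 0.33 for miR-29c-3p, 0.22 for miR-29a-3p and -0.042 for miR-29b-3p (SE 0.209 to 0.265).

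miR-30e-5p, an abundant member of the miR-30 family in plasma, was measured at 4589 to 22386 CPM with a median of 13088 at month 9, against 2780.2 to 12534 CPM with a median of 9201 at month 0. It was higher in 7 of 8 baboons: the change was largest in PA8835, at 11023 CPM at month 9 and 2780.2 at month 0, near 0 in PA8001 (log2 0.035) and downward in PA8003 (log2 -1.06). The groups overlapped and the change did not pass (log2 0.58, SE 0.209, 95% interval 0.15 to 1.01). With library totals alone it was 0.27. Its opposite arm, miR-30e-3p, had log2 -0.068 (SE 0.181) and was lower in 6 of 8 baboons, so the arms of this precursor had estimates of opposite sign; the difference between them was not tested. Over the 7 tested rows of the family, 6 of 7 were above 0 with a median of 0.18 (-0.18 with library totals alone).

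miR-22-3p, which many cell types make, stood at 223 to 664 CPM with a median of 322 at month 9, against 112 to 524 CPM with a median of 215 at month 0. It was higher in 7 of 8 baboons, again with PA8003 as the exception, and PA8001 was the highest library at both times (664 CPM at month 9 and 524 at month 0). The log2 change was 0.45 (SE 0.187) and 0.11 with library totals alone. The joined row miR-106a-5p/17-5p of the miR-17 clusters, whose members are known for promoting proliferation, was also higher in 7 of 8 baboons, at 107 to 441 CPM with a median of 189 at month 9, against 91.3 to 312 CPM with a median of 146 at month 0 (log2 0.50, SE 0.249). Counts of its 2 names cannot be divided. Over the 11 tested rows of those clusters 10 of 11 lay above 0 with a median of 0.10 (-0.23 with library totals alone). The row below 0 was miR-92a-1-5p, the minor arm of its precursor, at 0 to 23.5 CPM with a median of 9.43 at month 9, against 11.2 to 38.4 CPM with a median of 17.0 at month 0 (log2 -1.02, SE 0.437). It was lower in 7 of 8 baboons, and PA8872, at 38.4 CPM at month 0, had no count at month 9.

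Rows of the lymphocyte list made up 3 of the 11 smallest p-values, with miR-30e-5p above 0 and miR-181a-5p and miR-181a-2-3p below. miR-181a-5p, which tunes the sensitivity of the T cell receptor, was measured at 331 to 990.1 CPM with a median of 815 at month 9, against 478 to 1769 CPM with a median of 1088 at month 0. It was lower in 7 of 8 baboons, most in PA8915 (518 CPM at month 9, 1099 at month 0) and PA8912 (928 and 1769 CPM), and slightly higher in PA8873. The change was log2 -0.51, SE 0.175 (95% interval -0.87 to -0.16, edgeR adjusted p = 0.768). miR-181a-2-3p, the other arm of 1 of its 2 precursors, stood at 24.1 to 59.4 CPM with a median of 34.9 at month 9, against 39.4 to 84.9 CPM with a median of 53.6 at month 0. It was lower in 7 of 8 baboons, all but PA8835 (log2 -0.57, SE 0.214). miR-181b-5p, which shares the seed and the cluster, had log2 -0.33 (SE 0.201, lower in 6 of 8), while miR-181a-3p had 0.17 (SE 0.313). miR-181d-5p of the same list was higher in PA8001, PA8003, PA8872, PA8873 and PA8912 (log2 0.37 to 3.31). It was lower in PA8835 (log2 -1.75) and at log2 0 in PA8914 and PA8915. miR-181c-5p ran from log2 -3.62 in PA8003 to 2.32 in PA8914, so the 5p rows of this family did not all move downward. None of these changes passed. Plasma levels do not give the source cells, and cannot tell fewer cells of a type from less RNA released per cell.

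The lymphocyte microRNAs miR-150-5p and miR-342-3p also had estimates below 0. miR-342-3p was lower in 7 of 8 baboons, at 353 to 892 CPM with a median of 562 at month 9, against 457 to 1266 CPM with a median of 705 at month 0 (log2 -0.41, SE 0.236). In PA8001 its change was log2 -0.055, in PA8003 -0.034 and in PA8914 0.081, and the differences were largest in PA8915 (477 CPM at month 9, 1266 at month 0) and PA8872 (624 and 1147 CPM). miR-150-5p, which is abundant in mature B and T cells, had log2 -0.76, SE 0.407, and was lower in 5 of 8 baboons. Its largest differences were in the same 2 animals: PA8915 had 384 CPM at month 9 and 4077 at month 0, and PA8872 635 and 3628 CPM, while the other 6 animals lay between 335 and 1044 CPM at both times. Of the 12 lymphocyte rows, 4 were above 0 and 8 below, with a median of -0.38 (-0.70 with library totals alone, against -0.28 over all rows). In single animals the median change of the list ran from -0.73 (PA8003) to 0.25 (PA8914), and it was above 0 in PA8914 and PA8873. The summed level of the list was 8165 to 26379 CPM with a median of 16049.9 at month 9, against 6075 to 20545 CPM with a median of 14104 at month 0. It was higher at month 9 in 7 of 8 baboons, the opposite sign to the list median. This sum is largely miR-30e-5p, with medians of 13088 CPM at month 9 and 9201 at month 0, and itself higher in 7 of 8.

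**Figure D2:**
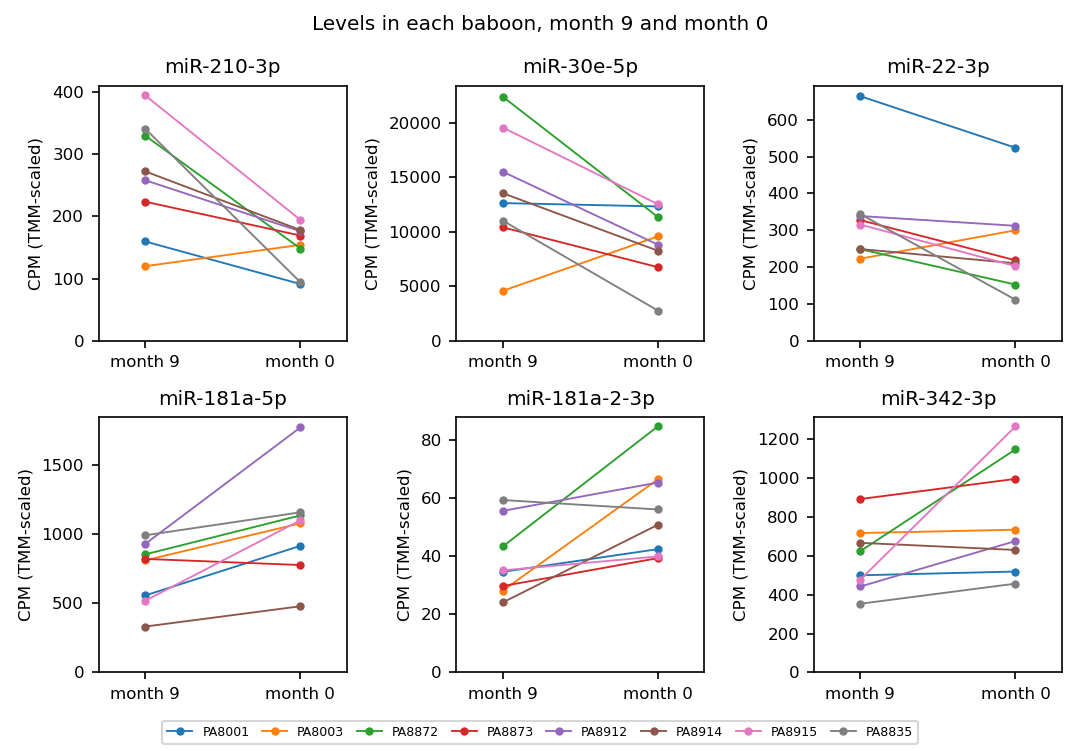
TMM-scaled CPM (y axis, linear, from 0) of 6 microRNAs in each of 8 baboons at month 9 (left) and month 0 (right); a line joins the 2 libraries of an animal. The upper panels show miR-210-3p, miR-30e-5p and miR-22-3p, each higher at month 9 in 7 of 8 baboons, and the lower panels miR-181a-5p, miR-181a-2-3p and miR-342-3p, each lower in 7 of 8; the values of the 2 months overlap in all 6 panels.

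miR-331-5p stood at 4.63 to 16.8 CPM with a median of 11.3 at month 9, against 11.2 to 34.3 CPM with a median of 17.8 at month 0, and was lower in 7 of 8 baboons (log2 -0.76, SE 0.367). miR-374a-5p, an X-linked microRNA in humans, was lower in all 8, at 5.29 to 19.1 CPM with a median of 9.04 at month 9, against 11.3 to 22.4 CPM with a median of 17.2 at month 0 (log2 -0.72, SE 0.375), with changes from log2 -1.89 in PA8003 to -0.029 in PA8872. The groups of both overlapped. miR-628-3p had the narrowest spread of these lower rows, 106 to 144 CPM with a median of 116 at month 9, against 126 to 159 CPM with a median of 144 at month 0 (log2 -0.28, SE 0.148), and with library totals alone its log2 change was -0.63. On the other side, miR-877-3p had counts in 4 of 8 libraries at month 9 and in 1 of 8 at month 0, at most 19 and 13 counts, so its fitted log2 change of 3.14 is no measure of size. The joined row miR-1185-1-3p/1185-2-3p of the DLK1-DIO3 cluster was similarly scarce, at 1.81 to 35.0 CPM with a median of 8.56 at month 9, against 0 to 10.2 CPM with a median of 4.59 at month 0 (log2 1.49, SE 0.759).

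Among tissue lists the liver list had the highest median. miR-122-5p, which hepatocytes make almost alone and which is used as a plasma sign of liver injury, took 34.2% of counts at month 9 and 2.63% at month 0 in PA8835. The shares at month 9 and month 0 were 10.6% and 1.76% in PA8912, 78.6% and 52.9% in PA8001, 31.5% and 20.7% in PA8003, and 1.35% and 0.969% in PA8872. In the other 3 animals the share was lower at month 9, at 2.71% against 4.09% at month 0 in PA8873, 6.95% against 11.6% in PA8914 and 1.14% against 1.79% in PA8915. Exact Clopper-Pearson 95% intervals of these shares are narrow, 34.08 to 34.23% at month 9 in PA8835 for example, and cover counting error only. Its log2 change was 1.58 (SE 0.589), and 1.00 when only the 16 libraries of these months were fitted. The mean paired difference of its log2 CPM was 1.12 ± 1.74 (SD, n = 8; exact sign-flip permutation test over 8 baboons, two-sided p = 0.109, adjusted over 7 library measures 0.273). edgeR without a low-count filter called it (adjusted p = 9.53e-05). No other alternative did, among which the fit with a term for miR-122-5p could not test it.

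Of the 11 tested liver rows 10 were above 0, against 59.4% of all rows, and edgeR with the low-count filter called none. The median log2 change was 0.70. It was 0.29 with library totals alone, 0.49 without the month 9 library of PA8001 and -0.026 in a fit with a term for miR-122-5p, itself a member. The joined row miR-365a-3p/365b-3p, whose human genes lie next to those of the miR-193 family, stood at 35.0 to 1414 CPM with a median of 103 at month 9, against 42.3 to 124 CPM with a median of 61.2 at month 0 (log2 1.17, SE 0.471). PA8001 alone held 67.1% of the summed CPM of month 9, 3 of the 8 animals were lower, and without that library the log2 change was 0.58. The joined row miR-192-5p/215-5p, of liver, kidney and gut, had log2 0.74 (SE 0.453), and 0.39 without the month 9 library of PA8001, which held 61.5% of its summed CPM of month 9. miR-194-5p, from the same clusters, had 0.62 (SE 0.423), and miR-885-5p 1.13 (SE 0.777). By animal, 10 of the 11 rows were higher in PA8001 and in PA8835, 9 in PA8003 and PA8912, 7 in PA8873 and PA8914, 5 in PA8872 and 3 in PA8915. The summed level of the list was 13244 to 2202590 CPM with a median of 87901 at month 9, against 8312 to 698645 CPM with a median of 28464 at month 0, higher in 5 of 8 baboons.

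**Figure D3:**
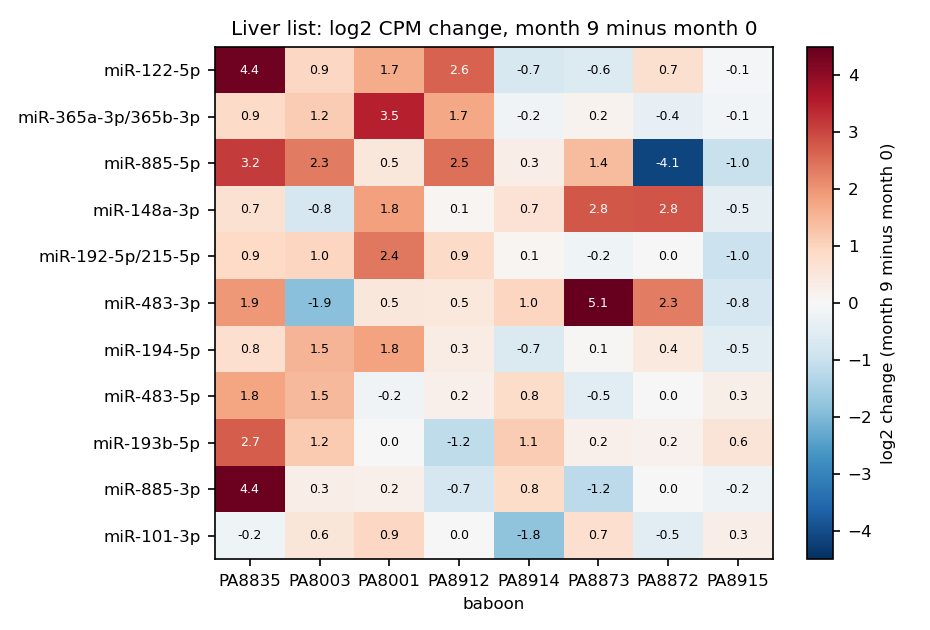
Log2 change in TMM-scaled CPM, month 9 minus month 0 (red higher, blue lower, printed in each cell), for the 11 tested rows of the liver list (down the page, by fitted change) in 8 baboons (across, by the median of the list). PA8835, PA8003, PA8001 and PA8912 are mostly red, with 9 or 10 of 11 rows higher, and PA8915 has 3 rows higher; the list median of 0.70 becomes 0.29 with library totals alone.

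Rows reported in the blood or tissue of women with endometriosis made up a list of 22 tested rows, of which 16 were above 0 and 6 below, with a median of 0.25 (-0.13 with library totals alone). edgeR with the low-count filter called none of them. Its rows with the smallest p were miR-210-3p, miR-122-5p and miR-22-3p, which are also given above. Of 6 microRNAs reported together as serum markers in women, miR-125b-5p was at 208 to 1389 CPM with a median of 405 at month 9, against 136 to 836 CPM with a median of 316 at month 0 (log2 0.58, SE 0.311, higher in 6 of 8). The highest month 9 value was in PA8001 (1389 CPM), and PA8835 was lower at month 9 (268 CPM, against 836 at month 0). The other 5 had log2 changes of -0.76 (miR-150-5p), -0.41 (miR-342-3p), -0.16 (miR-451a, SE 0.424), 0.25 (let-7b-5p, SE 0.196, and -0.13 with library totals alone) and 0.026 (miR-3613-5p, SE 0.368). The epithelial microRNAs of the miR-200 family in the list had log2 -0.17 (miR-200a-3p) and 0.25 (miR-141-3p), and miR-135a-5p and miR-135b-5p had no count in the 16 libraries.

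Endothelial and stromal microRNAs lay above 0 in 12 of 15 tested rows, with a median of 0.32 that became -0.064 with library totals alone. edgeR called none with or without the low-count filter, nor did DESeq2. The 3 with the smallest p were members of the miR-99/100 and miR-125 families, which share clusters with let-7 genes. After miR-125b-5p came miR-100-5p at 54.0 to 664 CPM with a median of 202 at month 9, against 49.4 to 411 CPM with a median of 133 at month 0 (log2 0.37, SE 0.295, higher in 6 of 8). miR-99a-5p was at 109 to 704 CPM with a median of 367 at month 9, against 105 to 568 CPM with a median of 273 at month 0 (log2 0.32, SE 0.262, higher in 5 of 8). The fibroblast and smooth muscle microRNAs miR-143-3p and miR-145-5p had log2 0.35 (SE 0.360) and 0.46 (SE 0.494), and the hypoxia- and endothelium-linked miR-424-5p and miR-503-5p had -0.27 and -0.055. The summed level of the list was 11939.8 to 24219 CPM with a median of 17408 at month 9, against 7326 to 24119 CPM with a median of 17005 at month 0.

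The red cell, platelet and myeloid lists had medians nearer to that of all rows than the lymphocyte list. In the red cell list 8 of 11 rows were above 0 with a median of 0.035 (-0.26 with library totals alone). miR-16-5p was higher in 7 of 8 baboons, at 105624 to 418900 CPM with a median of 188048 at month 9, against 102194 to 323289 CPM with a median of 158567 at month 0 (log2 0.41, SE 0.260). miR-486-5p had log2 0.035, SE 0.308 and miR-451a, which is largely restricted to red cells, was at 380.0 to 2739.9 CPM with a median of 1325 at month 9, against 475 to 5978 CPM with a median of 922 at month 0. The haemolysis index, the log2 ratio of miR-451a to miR-23a-3p/23b-3p, averaged 0.0617 ± 0.982 at month 9 and 0.0112 ± 1.06 at month 0 (SD, n = 8 each) and was higher in 4 of 8 baboons (exact sign-flip permutation test, two-sided p = 0.898). The platelet list had 8 of 12 rows above 0 and a median of 0.057 (-0.31 with library totals alone), with log2 0.16 (SE 0.213) for miR-126-3p and 0.34 for miR-199a-3p/199b-3p. The myeloid list had 3 of 10 above 0 and a median of -0.088 (-0.42 with library totals alone). In it miR-223-3p of neutrophils had log2 -0.13, SE 0.304, and miR-155-5p, which activated immune cells make, log2 -0.28, SE 0.246. Summed levels were 148262 to 550218 CPM with a median of 304650 at month 9, against 199518 to 550748 CPM with a median of 254999 at month 0 for red cells. For myeloid cells they were 7316 to 16565 CPM with a median of 11402 at month 9, against 9272 to 15154 CPM with a median of 12475 at month 0. edgeR with the low-count filter called no member of these lists. miR-24-3p of the platelet list was called by DESeq2 and by edgeR without that filter.

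Every tested row of the neural list, 6 of 6, was below 0. They ran from log2 -1.21 to -0.08 with a median of -0.44, against a median of 0.054 and 129 of 318 rows below 0 over the table. The median was -0.76 with library totals alone and -0.39 without the month 9 library of PA8001. None passed. miR-138-5p stood at 0 to 61.1 CPM with a median of 24.1 at month 9, against 16.6 to 50.0 CPM with a median of 43.6 at month 0 (log2 -0.73, SE 0.423), and PA8872 had no count of it at month 9. miR-9-5p of neural progenitors had log2 -0.39, SE 0.398, and miR-132-3p, induced by neuronal activity, held at most 15 counts at month 9 and 12 at month 0. The summed level of the list was 448 to 974 CPM with a median of 633 at month 9, against 442 to 1005 CPM with a median of 736 at month 0. Several of its microRNAs are made outside the nervous system, and miR-124-3p, the most specific of neurons, was counted too rarely to be tested.

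The remaining lists did not stand far from the table. Medians were 0.078 for muscle (5 of 7 rows above 0), -0.081 for epithelium (5 of 10), 0.043 for let-7 (7 of 9), -0.042 for inflammation (4 of 11) and 0.061 for DLK1-DIO3, an imprinted cluster (20 of 30). With library totals alone they were -0.18, -0.36, -0.32, -0.35 and -0.29 in that order, so the signs of muscle, let-7 and DLK1-DIO3 depended on the scaling. In the inflammation list miR-146a-5p, a brake on NF-kB signalling, had log2 -0.081, SE 0.303 and miR-21-5p, which many inflamed and fibrotic tissues make, log2 0.081, SE 0.179. The rows with the smallest p in epithelium were miR-31-5p (log2 0.67, SE 0.497) and miR-375-3p (log2 0.44, SE 0.481). Leaving out PA8915 gave 0.075 for miR-31-5p, and leaving out PA8872 gave 0.079 for miR-375-3p. In muscle the joined row miR-133a-3p/133b had log2 0.44, SE 0.717. Of the C19MC cluster, which the primate placenta expresses, none of 24 rows could be tested; 3 had a count in the 16 libraries and the other 21 had none, where a count of 0 allows 0.828 to 4.30 CPM depending on the library.

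**Figure D4:**
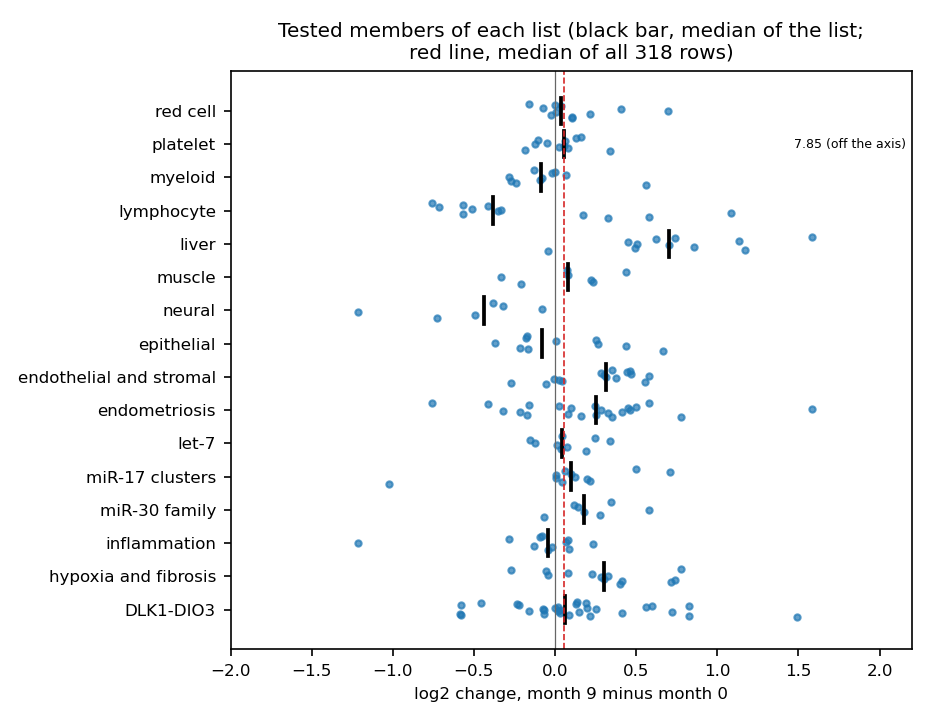
Log2 change at month 9 minus month 0 (x axis) of the tested rows of 16 lists (down the page); each point is a row, black bars are list medians and the red dashed line is the median of all 318 rows, 0.054. The liver median (0.70) lies farthest right and the neural (-0.44) and lymphocyte (-0.38) medians farthest left; 1 platelet row, miR-24-3p, lies off the axis at 7.85, and with library totals alone the medians of the endometriosis, endothelial and stromal, hypoxia and fibrosis, let-7, miR-17, miR-30, red cell, platelet, muscle and DLK1-DIO3 lists fall below 0.

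Single animals differed in how far their plasma moved. Over the 149 rows with a mean count of at least 100, the median size of the log2 change between month 9 and month 0 ran from 0.37 in PA8835 to 0.51 in PA8915. More than 2-fold changes were most frequent in PA8001, with 36 rows of which 27 were higher, and least frequent in PA8914, with 13. Total count was higher at month 9 in 6 of 8 baboons (mean difference in log2 total 0.43 ± 0.751, SD, n = 8; exact sign-flip permutation p = 0.172), as was the number of rows with a count (mean difference 20.1, exact p = 0.227). The log2 TMM factor was lower at month 9 in 7 of 8 baboons (mean difference -0.37, exact p = 0.0156, adjusted over 7 measures 0.109; the smallest p that 8 pairs allow is 0.00781). Its part in the changes of single rows was not tested.

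Several rows were at 0 in at least 5 libraries and at 20 counts or more in every other one. miR-24-3p, which platelets and many other cells make, was at 0 in 27 of the 40 libraries and between 1597 and 43201 counts in the others. At month 9 it was present in 4 baboons (PA8001, PA8003, PA8873 and PA8912) and at month 0 in PA8003 alone. It is a row that DESeq2 and edgeR without a filter called, and its fitted log2 change of 7.85 (SE 4.98) is no measure of size. miR-326-3p was present in 4 month 9 and 2 month 0 libraries, miR-6891-5p in 5 and 4, miR-760 in 6 and 5, miR-1294-5p in 3 and 3, and miR-652-3p in 6 and 7. For these 6 rows a library is better described as with or without the microRNA than by a fold change, and what sets their presence was not tested.

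Month 9 was also compared with the mean of months 3, 6 and 15 of the same animals, which asks whether it stands apart from the other times after inoculation and leaves the month 0 libraries out of the contrast. Here 2 of 318 rows were called by edgeR (0.629%), both higher at month 9: miR-100-5p and the joined row miR-365a-3p/365b-3p. miR-100-5p stood at 54.0 to 664 CPM with a median of 202 in the 8 month 9 libraries, against 15.7 to 288 CPM with a median of 73.5 in the 24 libraries of months 3, 6 and 15. It was higher than the animal's own mean of those months in 8 of 8 baboons, although the ranges of the libraries overlap (log2 1.03, SE 0.230, adjusted p = 0.0263). miR-365a-3p/365b-3p was at 35.0 to 1414 CPM with a median of 103 in the 8 month 9 libraries, against 15.0 to 119.6 CPM with a median of 37.3 in the 24 libraries of months 3, 6 and 15, and was higher in 7 of 8 (log2 1.54, SE 0.370, adjusted p = 0.0345). The next rows, which did not pass, were miR-125b-5p (log2 0.93, SE 0.241, adjusted p = 0.0544) and miR-99a-5p (log2 0.77, SE 0.206, adjusted p = 0.0544), each higher in 7 of 8. limma-voom called 2 rows (0.629%), DESeq2 5 of 318 (1.57%), and edgeR without a low-count filter 5 of 689 (0.726%).

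Both calls depended on the months and animals included and on the scaling. Neither passed with upper-quartile factors, with library totals alone or with months 3, 6, 9 and 15 fitted alone. miR-100-5p did not pass without the replicate block. miR-100-5p was lowest at month 15, at 15.7 to 133 CPM (median 61.2), against 33.3 to 255 CPM (median 161) at month 3, 34.9 to 288 CPM (median 86.5) at month 6 and 49.4 to 411 CPM (median 133) at month 0. Against month 0, miR-100-5p had log2 -1.16 at month 15 (edgeR, adjusted p = 0.0343), which passed. Its changes of log2 -0.61 at month 6, -0.21 at month 3 and 0.37 at month 9 did not pass. The medians of miR-365a-3p/365b-3p were 34.7 CPM at month 15, 37.8 at month 6 and 50.6 at month 3. With the mean of months 3 and 6 in place of all 3 months, neither passed by edgeR. miR-100-5p then had log2 0.78 (SE 0.250, adjusted p = 0.389). miR-365a-3p/365b-3p had log2 1.33 (SE 0.402, adjusted p = 0.365). Both SE were larger than with all 3 months. No row passed without the month 9 library of PA8001 (log2 0.99, adjusted p = 0.167 and log2 0.99, adjusted p = 0.489), without PA8001, PA8003 or PA8912, or in a fit with a term for miR-122-5p (log2 0.71, adjusted p = 0.171 and log2 0.97, adjusted p = 0.764). Without PA8835 1 row passed, miR-125b-5p, without PA8872 3 rows and without PA8873 4 rows passed, the added ones being miR-99a-5p and, without PA8873, miR-125b-5p. The level of miR-122-5p itself had log2 1.34, SE 0.471 in this comparison and did not pass by edgeR with the low-count filter. It passed in 1 of 23 alternatives, edgeR without that filter (adjusted p = 9.71e-06).

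**Figure D5:**
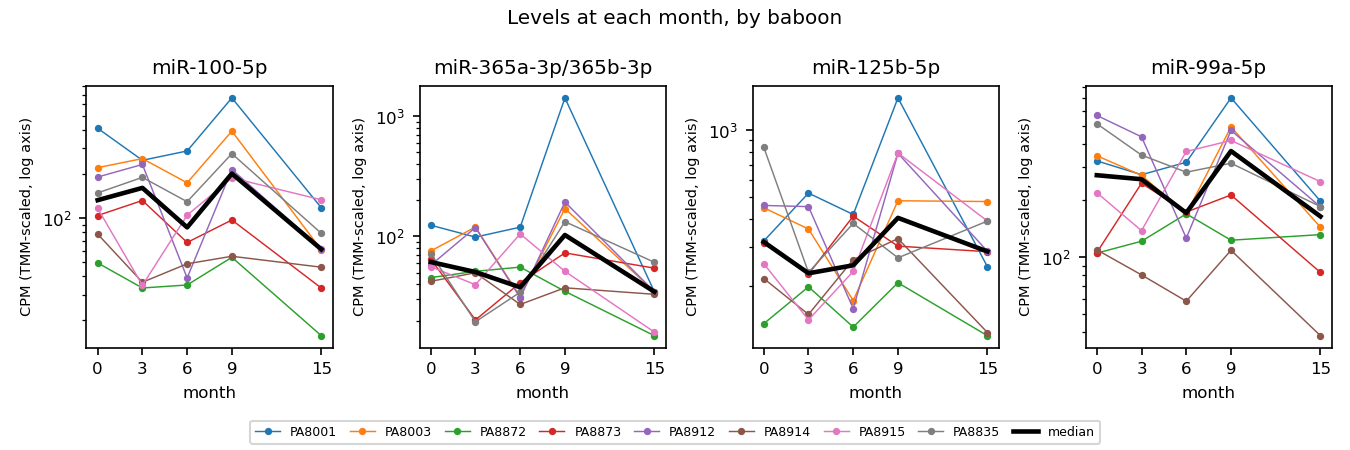
TMM-scaled CPM (y axis, log scale) of miR-100-5p, miR-365a-3p/365b-3p, miR-125b-5p and miR-99a-5p at months 0, 3, 6, 9 and 15 (x axis); thin lines are the 8 baboons and the black line is their median. The median is highest at month 9 in all 4 panels, and PA8001 has the highest month 9 value of each, 1414 CPM for miR-365a-3p/365b-3p.

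In the same comparison 40 rows (12.6%) had an unadjusted p under 0.05, 19 higher (5.97%) and 21 lower, and 44.3% of all rows had an estimate above 0. The same sign in all 8 baboons was found in 8 rows (2.52%), 2 higher and 6 lower. Beside miR-100-5p the other higher row was miR-1843 (log2 0.90, SE 0.427). The 6 lower ones were miR-9-5p (log2 -1.0, SE 0.342), miR-221-3p of endothelium and platelets (log2 -0.51, SE 0.229), miR-32-3p (log2 -0.40, SE 0.187), miR-503-5p (log2 -0.35, SE 0.142), miR-628-3p (log2 -0.32, SE 0.123) and miR-425-3p (log2 -0.27, SE 0.132), with adjusted p from 0.383 to 0.393 by edgeR over the 7 other than miR-100-5p. These 7 were chosen after their values were seen. miR-181a-2-3p, also lower against month 0, was below the other months too (log2 -0.41, SE 0.178), whereas miR-210-3p had log2 -0.11 (SE 0.193) and miR-30e-5p 0.14 (SE 0.167). Both comparisons use the same month 9 libraries, so these values are set side by side only.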

How the data were processed

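MicroRNAs of plasma were measured in 40 libraries, 8 baboons at 5 times, and the comparison uses the 8 libraries of month 9 and the 8 of month 0. Per the labels' protocols, adapters were ligated to total RNA and molecular identifiers were added at cDNA synthesis; whether the deposited whole-number counts are of molecules or of reads is not stated, nor are the aligner and the microRNA reference. The submitters' processing notes name R 4.5.0, edgeR and limma. Rows carry human microRNA names, and 21 of the 318 tested rows join several names. The description of the series speaks of tRNA fragments, which are not analysed here.

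From the deposited counts, rows were kept by filterByExpr grouped by month (minimum count 10, minimum total 15; 318 of 2731 rows, with 99.98% of the counts of the 16 libraries), scaled by TMM and fitted with the quasi-likelihood test of edgeR 4.0.16 (R 4.3.3) over all 40 libraries with baboon and month as terms. Adjusted p-values are Benjamini-Hochberg over all rows tested, with a threshold of 0.05, and SE is the log2 change divided by the square root of F. DESeq2 1.42.0 and limma-voom (limma 3.58.1) were run with the same terms, and the scripts were tested on simulated data. Per-baboon log2 changes use CPM with a prior count of 2. Single library measures were compared by exact sign-flip permutation over the 8 baboons, adjusted over 7 measures, with Python 3.11.15, numpy 2.4.6, pandas 2.3.3 and scipy 1.17.1.

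Libraries were paired by the baboon number in the labels. Deviations from the month mean correlated between month 9 and month 0 of the same baboon at 0.100 to 0.358 in all 8. The mean correlation was 0.17 within a baboon and -0.024 between different baboons. Only 3 of the 8 month 9 libraries correlated best with their own month 0 library, so this check does not establish each pair singly. No 2 of the 16 libraries were identical. Depth was 696873 to 3622363 counts per library, and a count of 0 allows up to 3 counts. Intervals of shares and this limit cover counting error only, whereas intervals of log2 changes come from the edgeR fit over the libraries.

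The rows and lists were chosen with earlier results of these data known. Named are all rows past the threshold; the 10 higher and 10 lower rows with the smallest p where fewer pass; the 10 most abundant rows; up to 3 tested rows of each list with the smallest p; the haemolysis rows and any row called by an alternative. The main alternatives were other scalings, filters, tools, covariates and leaving out each baboon.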

Additional observations from a re-analysis of the deposited data

Results flagged for a closer look

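In 66 sets of 8 per-baboon changes, the highest or lowest baboon lay far from the others in 5, where chance flags about 1 in 20. The sets come from the same 8 baboons and are not independent, and whether 5 exceeds that rate was not tested. PA8872 gave 3 of them: log2 -5.22 for miR-92a-1-5p (median of the other baboons -0.65), -5.38 for miR-138-5p (others -0.46) and -4.06 for miR-133a-3p/133b (others 0.94). PA8873 had log2 -3.70 for miR-493-3p (others -0.19), and PA8915 had log2 1.34 for miR-16-5p (others 0.12), the most abundant row of most libraries. The values for miR-92a-1-5p, miR-138-5p and miR-493-3p come from a count of 0 at month 9. Their size therefore depends on the prior count of 2 and is no measure of the change. The month 9 value of miR-133a-3p/133b in PA8872 rests on 4 counts, in the month 9 library with the lowest total (920618 counts).

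The difference between month 9 and the other times after inoculation passed its own test in 2 rows, miR-100-5p (log2 1.03) and miR-365a-3p/365b-3p (log2 1.54). miR-100-5p was higher in 8 of 8 baboons and miR-365a-3p/365b-3p in 7 of 8, and neither passed without the month 9 library of PA8001.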

How the results depend on the processing

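Against month 0, no row passed in any of 8 edgeR fits without 1 baboon, and the number under an unadjusted p of 0.05 was 8 to 15 in them. Without a low-count filter 2 rows passed and DESeq2 called 1; rows under an unadjusted p of 0.05 numbered 17 with upper-quartile factors, 24 with library totals alone, 22 without a filter, 5 of 252 with months 0 and 9 alone and 19 with log2 total count as a covariate. Libraries are paired by baboon in the main fit; without this replicate block none passed against month 0, 10 rows had an unadjusted p under 0.05 and, against months 3, 6 and 15, 1 row passed. Against months 3, 6 and 15, the calls numbered 3 with the size factors of DESeq2, 0 with upper-quartile factors, 0 with library totals alone, 5 without a filter, 4 with the strict filter (count 50 in 8 libraries), 5 in DESeq2, 2 in limma-voom, 3 in robust edgeR, 4 with the haemolysis index or log2 total count as covariate, 3 with miR-122-5p taken out, 0 without the month 9 library of PA8001 and 0 to 4 without 1 baboon. 3 alternatives chosen after seeing the data gave 0 calls each: a term for miR-122-5p, months 3, 6, 9 and 15 alone, and the mean of months 3 and 6. Rows under an unadjusted p of 0.05 numbered 23 with the strict filter, 26 with the haemolysis index, 9 with the miR-122-5p term, 23 with months 3 and 6, and 23 to 47 without 1 baboon. miR-100-5p passed in 13 and miR-365a-3p/365b-3p in 14 of 24 alternatives.

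Of 1340 single-row values against month 0, 1270 kept their sign and their side of the threshold, 3 passed it and 67 turned sign, none of them called. The values that turned, as log2 change, were the following: with library totals alone, miR-574-5p -0.012, miR-100-5p -0.012, miR-486-5p -0.26, let-7b-5p -0.13, miR-126-3p -0.14, let-7a-5p/7c-5p -0.32, let-7g-5p -0.34, miR-126-5p -0.16, miR-93-5p -0.12, miR-25-3p -0.10, miR-103a-3p/107 -0.23, miR-199a-3p/199b-3p -0.038, miR-378a-3p/378c/378d/378e -0.13, miR-499a-5p -0.059, miR-99a-5p -0.064, let-7d-3p -0.12, miR-30d-5p -0.21, miR-125a-5p -0.072; with the size factors of DESeq2, miR-486-5p -0.014, let-7g-5p -0.024; with upper-quartile factors, miR-486-5p -0.18, let-7a-5p/7c-5p -0.14, let-7g-5p -0.18, miR-126-5p -0.013, miR-103a-3p/107 -0.076, miR-30d-5p -0.036; without a low-count filter, miR-486-5p -0.039, let-7a-5p/7c-5p -0.012, let-7g-5p -0.045; in DESeq2, miR-486-5p -0.014, let-7g-5p -0.024; in limma-voom, miR-486-5p -0.049, let-7g-5p -0.013; with months 0 and 9 alone, miR-486-5p -0.073, let-7a-5p/7c-5p -0.016, let-7g-5p -0.049; without the replicate block, miR-486-5p -0.014, let-7g-5p -0.0054; with the haemolysis index as covariate, miR-486-5p -0.075, let-7g-5p -0.0030; with miR-122-5p taken out, miR-486-5p -0.037, let-7a-5p/7c-5p -0.0095, let-7g-5p -0.044; with log2 total count as covariate, let-7a-5p/7c-5p -0.049, let-7g-5p -0.090; with a term for miR-122-5p, let-7f-5p 0.052, miR-192-5p/215-5p -0.026, miR-378a-3p/378c/378d/378e -0.12, miR-23a-3p/23b-3p 0.13. Without 1 baboon each, the log2 change ran from -0.091 to 0.10 for miR-486-5p, -0.067 to 0.13 for let-7a-5p/7c-5p, -0.061 to 0.038 for let-7g-5p, -0.033 to 0.32 for miR-126-5p, -0.46 to 0.31 for miR-451a, -0.23 to 0.25 for miR-23a-3p/23b-3p. The cause was not tested.

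Among library measures without 1 baboon each, the mean difference was -0.24 to 0.29 for the haemolysis index, 0.24 to 0.61 for log2 total count, 10.4 to 29 for rows with a count and -0.032 to 3.13 percentage points for miR-16-5p. At this depth the 95% interval of the log2 change lay within 2-fold for 142 of 318 rows.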
